A study of Mus musculus with 6 samples.

Results

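MHC class I presentation was examined through 10 genes: B2m, the heavy chain genes H2-K1, H2-D1 and H2-T23, the transporter genes Tap1 and Tap2, the tapasin gene Tapbp, and the immunoproteasome genes Psmb8, Psmb9 and Psmb10. A probe set counted for a gene when the platform annotation gives it that gene and no other. This gave 26 of the 34958 single-gene probe sets and 9 of the 18194 genes on the array. H2-T23 has only probe sets that also name the pseudogene H2-T-ps, so it is described by their values and enters no test. The cells were immortalized mouse embryonic fibroblasts of mixed strain background with a Kdm5a deletion (KDM5A-/-). They carried reintroduced wild-type KDM5A, an enzyme that removes methyl groups from lysine 4 of histone H3, or KDM5A-H483A, whose catalytic histidine is replaced by alanine, or an empty vector as control. There were 3 groups with 2 Affymetrix M430 mouse arrays each, 6 in all, and every group lacks the endogenous gene. Arrays are numbered in the labels as biological replicates 1 and 2, here the first and second array, without saying what separates the cultures. The p-values therefore rest on the spread between these arrays alone, which may be technical. The promoter driving the reintroduced KDM5A, and whether a line is a clone, were not stated in the labels. RNA came from whole cultures, so fewer cells of a type and less RNA per cell cannot be told apart.

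MHC class I molecules show peptides from inside a cell to CD8 T cells. Proteasomes cut proteins into peptides, and after interferon the subunits Psmb8, Psmb9 and Psmb10 take the place of the constitutive subunits Psmb5, Psmb6 and Psmb7. TAP1 and TAP2 carry the peptides into the endoplasmic reticulum, where tapasin holds the heavy chain with B2m, still empty of peptide, beside the transporter. Fibroblasts express class I at a basal level that interferons raise through STAT and IRF factors and through NLRC5.

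The promoters of these genes show how close some members are in sequence and which letters known from interferon and NF-kappaB control they hold. RefSeq promoter windows (build GRCm38.p6, 250 bases before to 50 after the annotated start, 5′ to 3′ on the gene's strand) matched 9 of the 10 genes. Tap2 had no entry. The windows of B2m (chr2:122147437-122147736, plus strand), H2-K1 (chr17:34000284-34000583, minus strand), H2-D1 (chr17:35262844-35263143, plus strand), Tap1 (chr17:34187306-34187605, plus strand) and Tapbp (chr17:33919228-33919527, plus strand) are printed because the values below turn on these genes. Capitals mark motif matches in B2m, Tap1 and Tapbp. In H2-K1 and H2-D1 they mark the longest run of letters shared by both windows, 47 bases.
B2m: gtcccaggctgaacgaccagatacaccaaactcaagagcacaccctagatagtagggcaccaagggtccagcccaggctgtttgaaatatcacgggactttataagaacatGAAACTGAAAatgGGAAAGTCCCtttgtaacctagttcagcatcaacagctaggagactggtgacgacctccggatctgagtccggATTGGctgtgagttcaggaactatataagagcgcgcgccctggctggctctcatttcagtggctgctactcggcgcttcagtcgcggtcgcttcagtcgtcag
H2-K1: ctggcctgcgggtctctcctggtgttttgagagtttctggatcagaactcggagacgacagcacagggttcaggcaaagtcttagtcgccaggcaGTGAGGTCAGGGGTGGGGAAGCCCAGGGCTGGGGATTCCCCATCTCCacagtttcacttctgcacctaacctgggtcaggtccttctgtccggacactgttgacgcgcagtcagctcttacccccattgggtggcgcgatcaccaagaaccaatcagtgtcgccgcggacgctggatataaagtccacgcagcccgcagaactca
H2-D1: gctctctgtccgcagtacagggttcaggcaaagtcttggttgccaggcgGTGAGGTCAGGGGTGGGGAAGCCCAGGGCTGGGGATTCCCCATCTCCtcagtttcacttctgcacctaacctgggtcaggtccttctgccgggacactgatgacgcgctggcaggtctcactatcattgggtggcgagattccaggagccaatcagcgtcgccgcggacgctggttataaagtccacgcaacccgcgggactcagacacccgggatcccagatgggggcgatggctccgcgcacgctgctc
Tap1: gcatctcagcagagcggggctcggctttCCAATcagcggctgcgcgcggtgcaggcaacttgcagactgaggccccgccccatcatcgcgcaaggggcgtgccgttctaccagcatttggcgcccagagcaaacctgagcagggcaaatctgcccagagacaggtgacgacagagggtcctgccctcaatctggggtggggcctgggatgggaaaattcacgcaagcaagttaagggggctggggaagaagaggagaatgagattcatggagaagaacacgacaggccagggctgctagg
Tapbp: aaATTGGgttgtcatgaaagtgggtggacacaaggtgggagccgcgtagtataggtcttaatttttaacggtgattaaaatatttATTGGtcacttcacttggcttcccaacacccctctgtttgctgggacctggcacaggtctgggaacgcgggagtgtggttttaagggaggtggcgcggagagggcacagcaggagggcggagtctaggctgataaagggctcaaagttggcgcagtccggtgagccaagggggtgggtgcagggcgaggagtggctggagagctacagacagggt

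Motifs were searched on both strands. The core of the interferon-stimulated response element (GAAA and GAAA with any 2 letters between) stood in the B2m window as GAAACTGAAA and in the H2-T23 window as TTTCTCTTTC on the gene's strand, against 3.44% of all 32851 windows. The NF-kappaB letters (GGGA and TTTCC with any letter between) stood in the B2m window as GGAAAGTCCC, against 0.411% of windows. The gamma-activated site (TTC and GAA with any 3 letters between) stood in the Psmb8 window as TTCCCAGAA, against 8.3% of windows. CCAAT, the letters of the Y box, stood at any position in the windows of 7 of the 9 member genes, against 37.4% of windows. No motif overlapped another in the windows printed. Tap1 and Psmb9 are transcribed away from each other, and their windows share 275 bases. Their CCAAT matches are the same bases in that stretch, so this site is counted for both genes. A match describes letters only, and a site spelled otherwise is not counted. The run shared by H2-K1 and H2-D1 holds GGGGATTCCCC, which the NF-kappaB letters searched here do not cover. A window without a match is therefore not shown to lack such a site.

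The label of the cells was checked against fibroblast and leukocyte markers, since leukocytes also express class I genes. Col1a2, a fibroblast collagen gene, stood between 12.53 and 13.34 on the 6 arrays. Ptprc, which encodes the pan-leukocyte antigen CD45, stood between 2.76 and 3.18. Col1a2 was the highest of the fibroblast markers and Ptprc the lowest of the macrophage and dendritic markers. The lowest fibroblast marker, Lum, averaged 5.03, and the highest macrophage and dendritic marker, Csf1r, 6.24. Above the median gene level of 5.52 lay 9 of 10 fibroblast, 2 of 10 macrophage and dendritic, and 1 of 8 lymphocyte markers. Levels of different probe sets cannot be set against each other, and the table holds no detection calls, so these values do not give the share of either cell type. The median gene difference between first and second arrays in the list of 10 macrophage and dendritic cell markers was 0.0013 on the log2 scale. Single genes of this list ranged from -0.15 to 0.22. Most of these markers lay below the median gene level, and the part of leukocytes in the class I values was not tested.

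No class I presentation gene differed between groups by more than the replicate spread could resolve. In each of the 3 comparisons 0 of 9 members passed the limma threshold (adjusted p under 0.05 over all genes), and folds stayed within 1.22. Over all genes 0% passed in each comparison, so the members are like the rest in this. At an unadjusted p under 0.05 there were also 0 members in each, against 2.52% of all genes for wild-type KDM5A over empty vector, 1.65% for KDM5A-H483A over empty vector and 3.81% for KDM5A-H483A over wild-type KDM5A. This does not show that levels were equal. The members' 95% intervals reached from -1.03 to 1.06, from -1.25 to 0.85 and from -1.26 to 0.83 on the log2 scale in those comparisons. First arrays stood above second arrays for most members, with the widest gap in Tapbp.

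**Figure D1:**
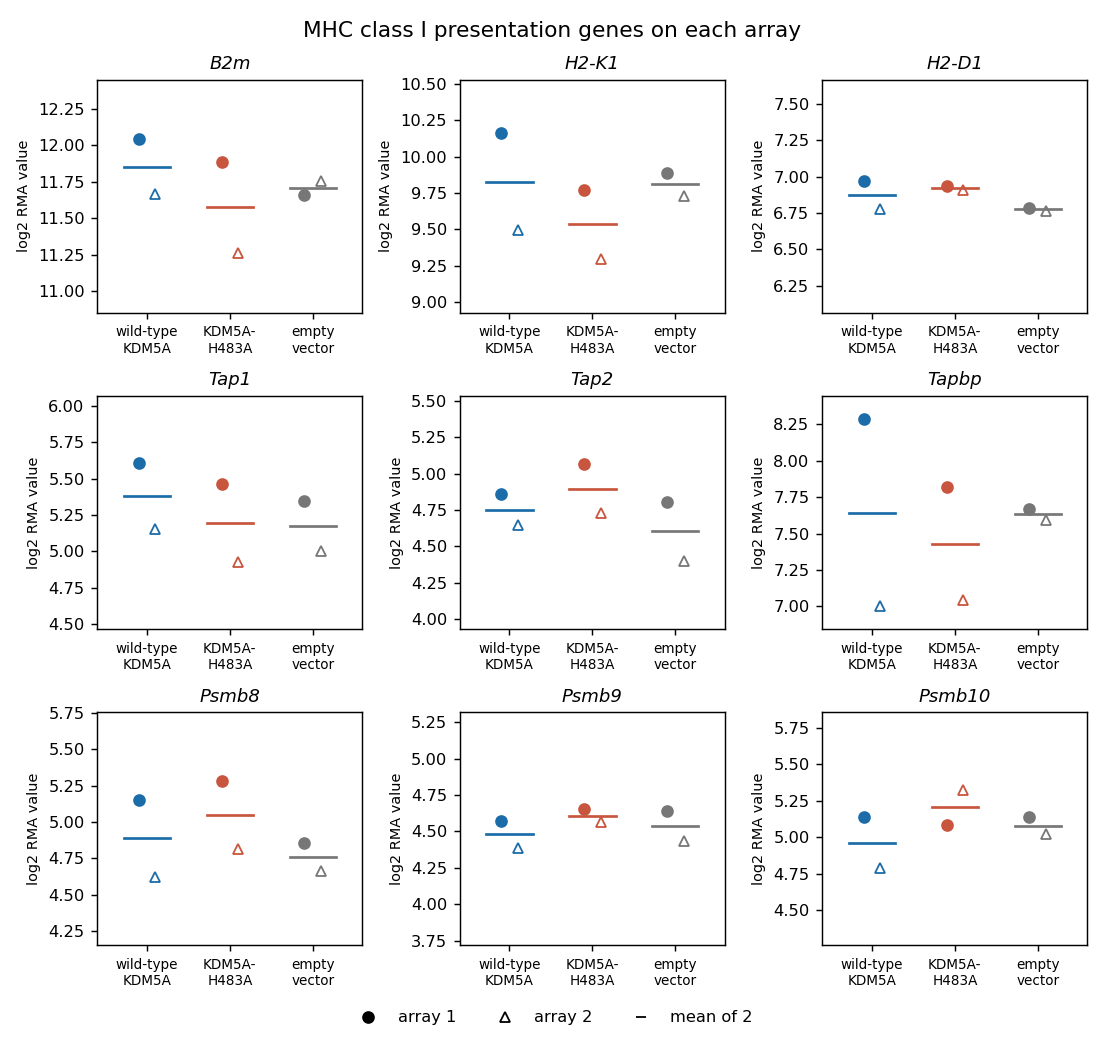
Log2 RMA values of the 9 member genes with a single-gene probe set, 1 panel per gene, for wild-type KDM5A, KDM5A-H483A and empty vector. Circles are first arrays, triangles second arrays and lines group means. Tapbp has the widest gap within a group, 8.29 and 7.0 with wild-type KDM5A, against 7.67 and 7.60 with empty vector.

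B2m encodes the light chain, without which heavy chains do not reach the surface. Its brighter probe set (1449289_a_at) stood at 12.04 and 11.67 with wild-type KDM5A, 11.89 and 11.26 with KDM5A-H483A, and 11.66 and 11.76 with empty vector. The second KDM5A-H483A array was lowest and the first wild-type KDM5A array highest, and each KDM5A group overlapped empty vector. In limma, wild-type KDM5A differed from empty vector by 0.15 on the log2 scale (95% CI -0.42 to 0.71), and KDM5A-H483A by -0.13 (95% CI -0.70 to 0.43). The other B2m probe set (1452428_a_at) stood at 11.54 and 11.17 with wild-type KDM5A, 11.21 and 10.78 with KDM5A-H483A, and 11.0 and 11.11 with empty vector. There both wild-type KDM5A arrays lay above both empty vector arrays, with a log2 difference of 0.30 (95% CI -0.17 to 0.77) that did not pass. Such a separation was seen in 5 of the 26 member probe sets and, by gene, in 2995 of all 18194 genes.

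H2-K1 encodes the K heavy chain. Its 4 single-gene probe sets are all of the _x_at kind, whose probes can bind related transcripts. The brightest (1425336_x_at) stood at 10.16 and 9.49 with wild-type KDM5A, 9.77 and 9.30 with KDM5A-H483A, and 9.89 and 9.73 with empty vector. The wild-type KDM5A arrays lay on both sides of the empty vector arrays, and the second arrays of both KDM5A groups were the lowest. By this probe set, wild-type KDM5A differed from empty vector by 0.017 on the log2 scale (95% CI -0.61 to 0.64), and KDM5A-H483A by -0.27 (95% CI -0.90 to 0.35). Another (1427746_x_at) was also lower on the second array of each group, while 1450534_x_at and 1451931_x_at were lower on the first KDM5A-H483A array than on the second. Over the 4 probe sets the log2 difference of KDM5A-H483A from empty vector had both signs, from -0.27 to 0.17.

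H2-D1 encodes the D heavy chain. Of its 9 single-gene probe sets, 4 lay above the 50th percentile of level, and each of these put both KDM5A-H483A arrays above both empty vector arrays. The one outside the _x_at kind (1426324_at) stood at 6.97 and 6.78 with wild-type KDM5A, 6.93 and 6.91 with KDM5A-H483A, and 6.79 and 6.76 with empty vector. It made H2-D1 the only 1 of 9 members whose arrays did not overlap between KDM5A-H483A and empty vector, against 28.2% of all genes. For this gene, wild-type KDM5A differed from empty vector by 0.097 on the log2 scale (95% CI -0.20 to 0.40), and KDM5A-H483A by 0.14 (95% CI -0.16 to 0.45).

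The brightest H2-D1 probe set (1425545_x_at) read 9.15 and 9.18 on the KDM5A-H483A arrays and 8.95 and 8.83 on those of empty vector. A further one (1451784_x_at) read 9.05 and 9.13 on the KDM5A-H483A arrays and 8.83 and 8.61 on those of empty vector. The dimmer 1451683_x_at read 7.32 and 7.48 on the KDM5A-H483A arrays and 6.91 and 7.10 on those of empty vector. In these probe sets the KDM5A-H483A arrays lay close together and above empty vector, by 0.28, 0.37 and 0.40 on the log2 scale, and none passed in a limma fit over all single-gene probe sets. Over the 26 member probe sets, 5 had both KDM5A-H483A arrays above both empty vector arrays and 2 had both below, against 13.2% and 15.1% of all single-gene probe sets. Probe sets of H2-D1 and H2-K1 can bind the same transcripts, so they are not independent readings.

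**Figure D2:**
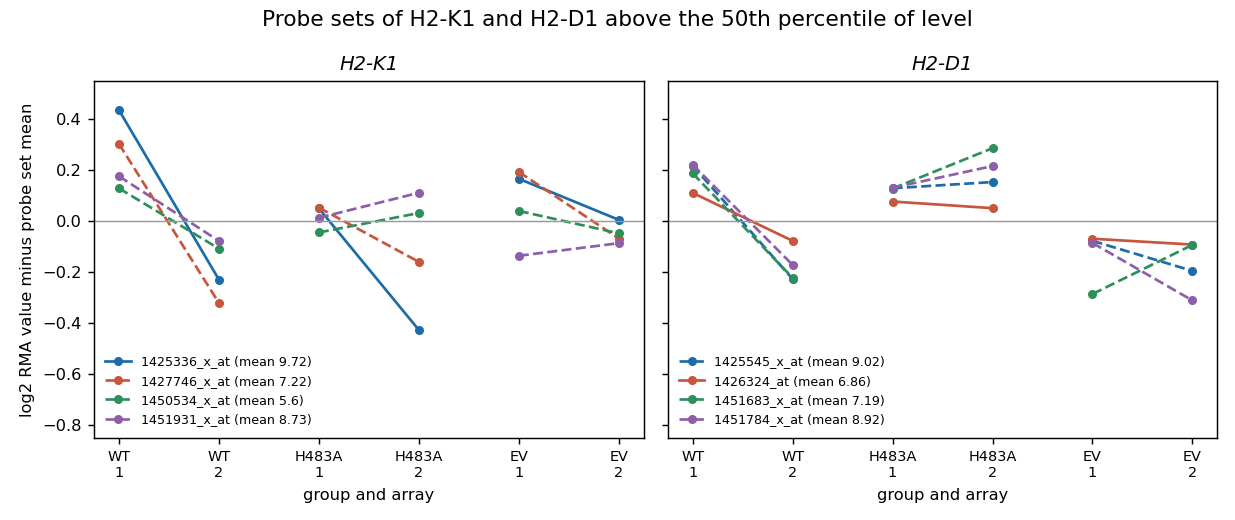
Log2 RMA value minus the probe set's mean over 6 arrays (vertical axis) by group and array, for the H2-K1 and H2-D1 probe sets above the 50th percentile of level, 4 each. Solid lines are the probe sets that stand for the genes and dashed lines the others. All 4 H2-D1 probe sets are higher on both KDM5A-H483A arrays than on both empty vector arrays, while those of H2-K1 differ among themselves.

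The other 5 H2-D1 probe sets were among the 10 of 26 member probe sets below the 50th percentile, whose values spanned 2.61 to 4.65. When the H2-D1 probe sets outside the _x_at kind were averaged, the log2 difference over empty vector was -0.027 in wild-type KDM5A cells and -0.032 in KDM5A-H483A cells, opposite in sign to the single probe set. H2-T23 encodes the heavy chain Qa-1. Read together with its pseudogene, 1449556_at stood at 4.77 and 4.31 with wild-type KDM5A, 4.47 and 4.20 with KDM5A-H483A, and 4.15 and 4.0 with empty vector. All 4 KDM5A arrays lay above both empty vector arrays in this weak probe set. Of all 18194 genes, 2995 had both wild-type KDM5A arrays above both empty vector arrays, and 2474 had both KDM5A-H483A arrays above them. The other H2-T23 probe set, 1419658_at, stood between 3.07 and 3.52, and its groups overlapped.

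Tap1 and Tap2 encode the subunits of the peptide transporter. Tap1 (1416016_at) stood at 5.61 and 5.15 with wild-type KDM5A, 5.46 and 4.93 with KDM5A-H483A, and 5.35 and 5.0 with empty vector. The first array was higher in each group, and the groups overlapped. For Tap1, wild-type KDM5A differed from empty vector by 0.21 on the log2 scale (95% CI -0.39 to 0.80), and KDM5A-H483A by 0.018 (95% CI -0.57 to 0.61). Tap2 (1453913_a_at) stood at 4.86 and 4.65 with wild-type KDM5A, 5.06 and 4.73 with KDM5A-H483A, and 4.80 and 4.40 with empty vector. Its groups overlapped too, and wild-type KDM5A differed from empty vector by 0.15 on the log2 scale (95% CI -0.32 to 0.62), and KDM5A-H483A by 0.29 (95% CI -0.18 to 0.76). The other 3 Tap1 probe sets were weak, between 2.61 and 4.13.

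Tapbp encodes tapasin. Its brighter probe set (1421812_at) stood at 8.29 and 7.0 with wild-type KDM5A, 7.82 and 7.04 with KDM5A-H483A, and 7.67 and 7.60 with empty vector. The first KDM5A arrays stood above, and the second below, both empty vector arrays. The means were 7.64 ± 0.91 with wild-type KDM5A, 7.43 ± 0.55 with KDM5A-H483A and 7.63 ± 0.051 with empty vector (SD, n = 2 each). By limma, wild-type KDM5A differed from empty vector by 0.012 on the log2 scale (95% CI -1.03 to 1.06), and KDM5A-H483A by -0.20 (95% CI -1.25 to 0.84). The weaker probe set (1450378_at) was also lower on the second array of each KDM5A group, at 6.45 and 5.29 with wild-type KDM5A, 5.84 and 5.13 with KDM5A-H483A, and 5.77 and 5.72 with empty vector. The residual SD of Tapbp, 0.61, lay at the 98.5th percentile of all genes, where that of H2-D1, 0.078, lay at the 14.7th.

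Psmb8 encodes the chymotrypsin-like subunit of the immunoproteasome. It stood (1422962_a_at) at 5.15 and 4.62 with wild-type KDM5A, 5.28 and 4.81 with KDM5A-H483A, and 4.85 and 4.67 with empty vector. The first array was higher in each group and the groups overlapped. For Psmb8, wild-type KDM5A differed from empty vector by 0.13 on the log2 scale (95% CI -0.43 to 0.69), and KDM5A-H483A by 0.29 (95% CI -0.27 to 0.85). Psmb9 (1450696_at), another catalytic subunit, stayed between 4.38 and 4.65 on the 6 arrays, and wild-type KDM5A differed from empty vector by -0.058 on the log2 scale (95% CI -0.39 to 0.28), and KDM5A-H483A by 0.072 (95% CI -0.26 to 0.41). Psmb10 (1448632_at), encoded outside the MHC, stood at 5.14 and 4.79 with wild-type KDM5A, 5.08 and 5.33 with KDM5A-H483A, and 5.14 and 5.02 with empty vector. It was the only member with a higher second array in the KDM5A-H483A group, its groups overlapped, and wild-type KDM5A differed from empty vector by -0.12 on the log2 scale (95% CI -0.52 to 0.29), and KDM5A-H483A by 0.13 (95% CI -0.28 to 0.53).

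The catalytic mutant and the wild-type enzyme were compared directly, which the empty vector arrays do not enter except through the shared spread. The widest differences were in H2-K1, at -0.29 (95% CI -0.92 to 0.33), B2m, at -0.28 (95% CI -0.85 to 0.28), and Psmb10, at 0.24 (95% CI -0.16 to 0.65). The smallest adjusted limma p of a member was 0.928. Of the 9 members 5 lay above 0, against 48.4% of all genes, with a median of 0.047. None had arrays that did not overlap, against 31% of genes. For wild-type KDM5A over empty vector 7 lay above 0, against 51.3%, with a median of 0.097, and none had arrays apart, against 31.8%. For KDM5A-H483A over empty vector 6 lay above 0, against 50.2%, with a median of 0.072. The comparisons with empty vector share the same 2 control arrays.

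**Figure D3:**
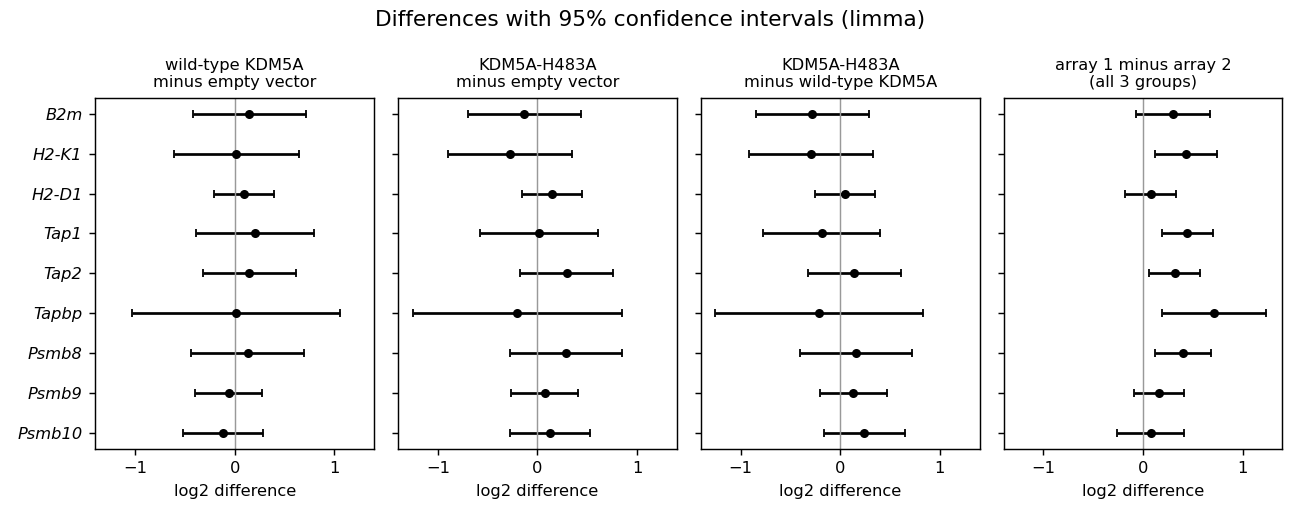
Log2 differences of the 9 member genes with 95% confidence intervals from limma, in 3 comparisons between groups and between first and second arrays over all groups. Every interval between groups holds 0. Between first and second arrays all 9 estimates lie above 0 and 5 intervals do not hold it.

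The members' median difference was wider between first and second arrays than in any comparison between groups. With group and replicate number in the fit, 9 of 9 members were higher on first arrays, against 50.7% of all genes, with a median log2 difference of 0.32, beside 0.0027 over all genes. At an unadjusted p under 0.05 there were 5 (Tap1, Psmb8, H2-K1, Tapbp and Tap2), against 11.7% of all genes, and 0 passed after adjustment, as did 0% of all genes. All first arrays stood above all second arrays for 6 members, against 9.67% of genes, and 0 members showed the opposite, against 7.8%. Tapbp differed by 0.71 (SE 0.22, 95% CI 0.19 to 1.23, limma adjusted p = 0.278) and Tap1 by 0.44 (SE 0.11, 95% CI 0.19 to 0.70, limma adjusted p = 0.216). H2-K1 differed by 0.43, Psmb8 by 0.40 and Tap2 by 0.32. B2m (0.30), Psmb9 (0.16), H2-D1 (0.079) and Psmb10 (0.076) had intervals that hold 0. What a replicate number shares across groups is not in the labels.

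By group, the median member was higher on the first array by 0.37 with wild-type KDM5A, 0.47 with KDM5A-H483A and 0.16 with empty vector. Over the 26 member probe sets the medians were 0.25, 0.096 and 0.062 in that order. In both KDM5A groups the first array was higher for 8 of 9 members, against 31.3% of genes. By probe set this held for 14 of 26, against 30.7% of all single-gene probe sets. Of the 14 member probe sets above the median level, 8 were higher on the first KDM5A-H483A array, against 8230 of all 17479 such probe sets. In the 4 KDM5A arrays alone Tapbp was 2.04-fold higher on first arrays (log2 difference 1.03, 95% CI 0.66 to 1.4, limma adjusted p = 0.00573). It was the 1 member to pass, against 5.27% of all genes, in a fit with 1 residual degree of freedom. H2-K1 was next, at 0.57 (limma adjusted p = 0.0594). A test of whether this array difference is larger in the KDM5A groups than in empty vector, added once the values were known, gave 0.96 for Tapbp (95% CI 0.31 to 1.61, limma adjusted p = 0.391). No member passed it, against 0.187% of all genes.

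**Figure D4:**
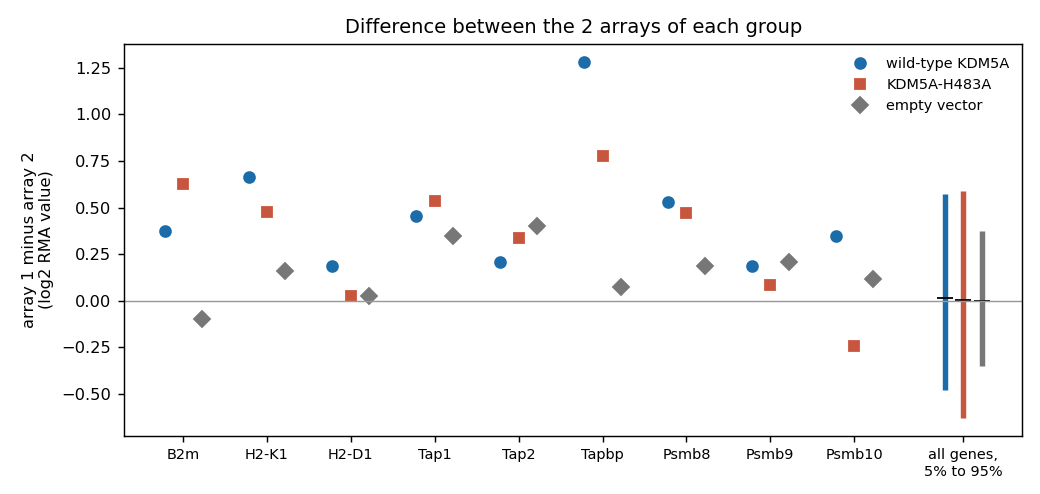
First minus second array (log2 RMA value) of each member gene in each group, beside bars for the 5% to 95% range of all genes with their median. Tapbp reaches 1.28 with wild-type KDM5A and 0.78 with KDM5A-H483A, above the upper ends of 0.57 and 0.59, against 0.073 with empty vector.

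Members shared this pattern unequally. Over the 6 arrays, which share groups and normalization, the Pearson correlation with the mean of the other members was 0.90 for Tap1, 0.88 for Tapbp, 0.86 for Psmb8 and 0.80 for H2-K1. It was 0.69 for B2m and 0.16 for Psmb10. Among genes with a range of at least 1 log2 unit, those most like the members' mean were Cxcl15 (r = 0.99), Zfp467, Ddit4l, Tle2, Stat2, Nrep, Ankrd16 and Eno2 (r = 0.98). Cxcl15, a chemokine gene, stood at 8.37 and 4.59 with wild-type KDM5A, 7.92 and 4.47 with KDM5A-H483A, and 6.56 and 5.38 with empty vector. These likenesses are descriptions over 6 arrays.

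Of 18 measured regulators of class I transcription, 17 were higher on first arrays in the fit, against 50.7% of all genes. At an unadjusted p under 0.05 there were 4, against 11.7%, and 0 passed after adjustment. By group the list's median first minus second array was 0.30 with wild-type KDM5A, 0.21 with KDM5A-H483A and -0.010 with empty vector. The first array was higher in all 3 groups for 5 of the 18, against 3149 of all 18194 genes. Stat2, a transducer of type I interferon signals, stood at 5.17 and 4.10 with wild-type KDM5A, 5.09 and 4.30 with KDM5A-H483A, and 4.63 and 4.43 with empty vector. Between first and second arrays Stat2 differed by 0.69 (95% CI 0.27 to 1.10), its partner gene Irf9 by 0.91 (95% CI 0.22 to 1.60), Irf1, which drives class I genes, by 0.45 (95% CI 0.081 to 0.82) and the X box factor gene Rfx5 by 0.40 (95% CI 0.060 to 0.73). Between groups 0 of the list passed, and the kinase gene Tyk2 differed by -0.32 (95% CI -0.61 to -0.025) for KDM5A-H483A over empty vector. Nlrc5, the class I transactivator, stood at 3.55 and 3.26 with wild-type KDM5A, 3.29 and 3.07 with KDM5A-H483A, and 3.46 and 3.47 with empty vector, and differed by -0.28 (95% CI -0.65 to 0.087) for KDM5A-H483A over empty vector.

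Interferon-stimulated genes outside the pathway had a median of 0.66 between first and second arrays, with 17 of 18 above 0, against 50.7% of all genes, 14 at an unadjusted p under 0.05, against 11.7%, and 0 passing after adjustment. The antiviral gene Ifit1 differed by 2.64 (95% CI 1.31 to 3.98), Rtp4 by 1.93 (95% CI 0.84 to 3.01), Xaf1 by 1.86 (95% CI 1.05 to 2.68) and the tetherin gene Bst2 by 0.63 (95% CI 0.24 to 1.02). Relative to its empty vector mean, the mean log2 value of this list was 1.22 and -0.17 on the wild-type KDM5A arrays and 0.66 and -0.26 on the KDM5A-H483A arrays. For the 9 class I members it was 0.30 and -0.17 on wild-type KDM5A arrays and 0.21 and -0.13 on those of KDM5A-H483A. Fibroblast markers stood at 0.43 and -0.72 on wild-type KDM5A arrays and 0.24 and -0.75 on those of KDM5A-H483A, with 7 of 10 at an unadjusted p under 0.05, against 11.7% of all genes, and 0 passing after adjustment. Macrophage and dendritic markers stood at -0.0034 and -0.055 on wild-type KDM5A arrays and 0.073 and 0.029 on those of KDM5A-H483A. The part of these in the class I values was not tested.

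For wild-type KDM5A over empty vector 18 of 18 interferon-stimulated genes lay above 0 (median 0.49), against 51.3% of all genes, and 0 passed. In 4 of them both wild-type KDM5A arrays lay above both empty vector arrays, against 2995 of all 18194 genes. As the list means above show, the first wild-type KDM5A array lay above the empty vector mean and the second below it. The viperin gene Rsad2 differed by 0.49 (95% CI -0.028 to 1.01) and the factor gene Irf7 by 0.39 (95% CI -0.14 to 0.92). For KDM5A-H483A over empty vector 16 lay above 0 (median 0.17), against 50.2% of all genes, and Ifit2 differed by 0.45 (95% CI 0.029 to 0.87). For KDM5A-H483A over wild-type KDM5A 1 lay above 0 (median -0.31), against 48.4%, and 0 passed in any of these comparisons.

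**Figure D5:**
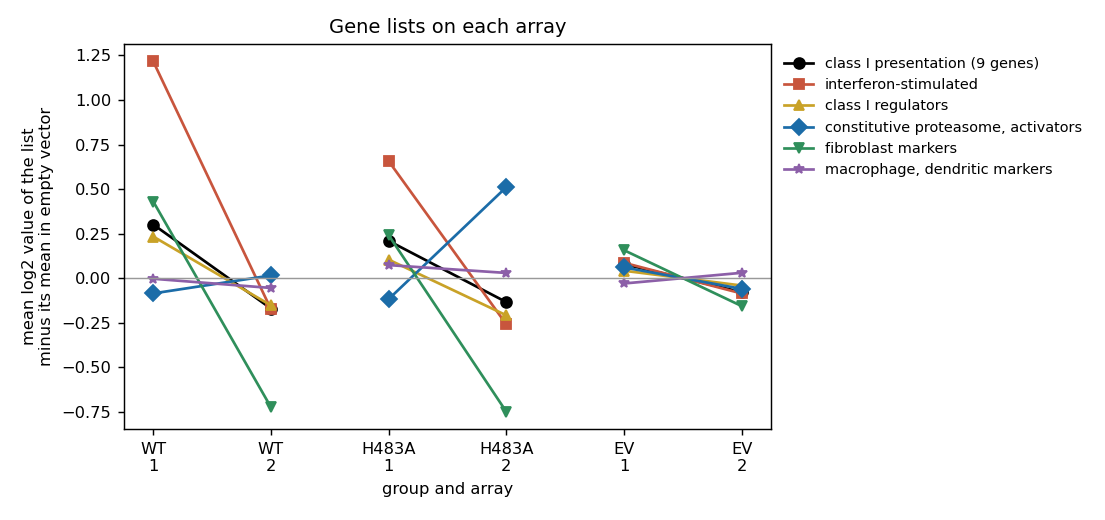
Mean log2 value of each gene list minus its mean in empty vector (vertical axis), by group and array. The class I members have the same order of arrays within the KDM5A groups as the interferon-stimulated genes at a smaller size. The constitutive proteasome and activator list is highest on the second KDM5A-H483A array, at 0.51.

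Of 18 measured constitutive proteasome and activator genes, 17 were lower on first arrays in the fit over all groups (median -0.18). Over all genes 8966 of 18194 were lower. Unadjusted p was under 0.05 for 4 of the list, against 11.7% of all genes, and 0 passed after adjustment. By group the list's median first minus second array was -0.14 with wild-type KDM5A, -0.73 with KDM5A-H483A and 0.11 with empty vector, so the groups did not share a direction. Relative to empty vector the list's mean stood at -0.086 and 0.015 on wild-type KDM5A arrays and -0.12 and 0.51 on those of KDM5A-H483A, where the second array stood apart. The core subunit gene Psmb3 differed by -0.38 (95% CI -0.65 to -0.11), Psma7 by -0.32 (95% CI -0.59 to -0.055) and Psma5 by -0.30 (95% CI -0.57 to -0.029). Psmb5, the counterpart of Psmb8, stood at 8.97 and 8.76 with wild-type KDM5A, 8.76 and 9.77 with KDM5A-H483A, and 8.92 and 8.63 with empty vector. Psmb6, the counterpart of Psmb9, stood at 8.55 and 8.57 with wild-type KDM5A, 8.82 and 9.78 with KDM5A-H483A, and 9.03 and 8.64 with empty vector. Psmb7, the counterpart of Psmb10, stood at 9.98 and 10.21 with wild-type KDM5A, 9.78 and 10.81 with KDM5A-H483A, and 10.09 and 10.00 with empty vector. All 3 counterparts were highest on the second KDM5A-H483A array. Of the immunoproteasome genes Psmb8 and Psmb9 were lower on that array than on the first of the group, and Psmb10 was higher. Psma4 read 9.89 and 10.62 on the KDM5A-H483A arrays, against 9.30 and 9.35 with wild-type KDM5A, a log2 difference of 0.92 (95% CI 0.25 to 1.60, limma adjusted p = 0.928). Between groups 0 of these genes passed.

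Of 9 measured peptide loading and trimming genes outside the 10, 5 were higher on first arrays (median 0.021), against 50.7% of all genes. Tapbpl, the gene of the tapasin relative TAPBPR, differed by 0.34 (95% CI 0.050 to 0.63). For wild-type KDM5A over empty vector the aminopeptidase gene Npepps differed by 0.38 (95% CI -0.0018 to 0.77) and the calnexin gene Canx by 0.34 (95% CI -0.074 to 0.76). For KDM5A-H483A over wild-type KDM5A the disulfide isomerase gene Pdia3 of the loading complex differed by 0.49 (95% CI -0.054 to 1.03). Of 11 other class I and class I-like genes, Fcgrt, the neonatal Fc receptor gene, differed by 0.82 (95% CI 0.29 to 1.35) between first and second arrays. The iron regulator gene Hfe read 4.56 and 4.71 on the KDM5A-H483A arrays and 4.97 and 4.96 on those of empty vector, a log2 difference of -0.33 (95% CI -0.62 to -0.038). Of 8 measured MHC class II genes, H2-DMa, which helps load class II, differed by 0.60 (95% CI -0.041 to 1.24) for KDM5A-H483A over empty vector. In these 3 lists 0 genes passed in any comparison.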

How the data were processed

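Expression was measured on 6 Affymetrix M430 arrays. The authors deposited log2 values, with RMA named in the submitters' processing notes and no version. Array medians lay between 4.55 and 4.6, so no scaling was added. The number of arrays limits the precision.

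Of 45101 probe sets, the platform annotation gave 34958 a single gene, 932 several and 9211 none. Each gene was represented by its brightest single-gene probe set outside the _x_at kind, or by an _x_at one where it had no other. Limma (version 3.58.1, R 4.3.3) fitted 1 mean per group to all 6 arrays (lmFit, eBayes), two-sided, with Benjamini-Hochberg adjustment over 18194 genes. First and second arrays were compared by adding the replicate number. An exact permutation test of 2 against 2 arrays cannot go below p = 0.333, so none was run. The fit was tested on simulated data. Alternatives covered probe sets, level, variance prior, scaling, the replicate number and the arrays used.

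The members, lists and tests were chosen with earlier results of these data known. All members were named, and those named from each other list are among its 2 to 4 genes with the smallest unadjusted p in the comparison. Psmb5, Psmb6 and Psmb7 as counterparts of members, and Col1a2 and Ptprc as markers, were chosen for their roles after their values were seen. Lum and Csf1r were named as the lowest and the highest of their marker lists.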

Additional observations from a re-analysis of the deposited data

How the results depend on the processing

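Between groups 0 genes and 0 members were called under every alternative tried: averaged probe sets, all single-gene probe sets, genes above the median level, a variance trend, median-centred arrays, the brightest probe set of any kind (chosen after seeing the data), the 4 arrays compared alone, the replicate block, and 1 array left out. With the replicate block the members' log2 differences are the same by construction, and their adjusted limma p were at least 0.795. Replicate differences correlated across genes at 0.31 between wild-type KDM5A and empty vector, 0.016 between KDM5A-H483A and empty vector, and 0.53 between KDM5A-H483A and wild-type KDM5A. The labels do not say what a number shares, and the main comparisons between groups did not pair the samples by it. Differences by replicate number therefore stay in the spread of those comparisons.

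With averaged probe sets H2-D1 turned to -0.027 for wild-type KDM5A over empty vector, -0.032 for KDM5A-H483A over empty vector, -0.0051 for KDM5A-H483A over wild-type KDM5A and -0.025 for first over second arrays. The average takes in a weak probe set, and the cause was not tested. Leaving out an array of the group outside a comparison between groups cannot change its log2 difference. For first over second arrays, leaving out either array of a group gives the same value. With these fixed and repeated values counted in the total, leaving out 1 array turned the sign in 28 of 216 member values. These ranges were B2m -0.038 to 0.34, H2-K1 -0.32 to 0.35, Tap1 -0.021 to 0.43, Tap2 -0.052 to 0.35, Tapbp -0.63 to 0.65, Psmb8 -0.14 to 0.40, Psmb9 -0.16 to 0.045 and Psmb10 -0.29 to 0.060 for wild-type KDM5A over empty vector, B2m -0.45 to 0.18, Tap1 -0.25 to 0.29, Tapbp -0.59 to 0.19 and Psmb9 -0.031 to 0.18 for KDM5A-H483A over empty vector, B2m -0.59 to 0.033, H2-K1 -0.62 to 0.041, H2-D1 -0.047 to 0.14, Tap1 -0.45 to 0.080, Tap2 -0.026 to 0.31, Tapbp -0.85 to 0.43 and Psmb8 -0.11 to 0.43 for KDM5A-H483A over wild-type KDM5A, and Psmb10 -0.061 to 0.23 for first over second arrays. With no change of sign, KDM5A-H483A over empty vector ranged over -0.51 to -0.036 for H2-K1, 0.091 to 0.49 for Tap2, 0.054 to 0.52 for Psmb8 and 0.0069 to 0.25 for Psmb10. The member median then ranged over -0.14 to 0.34, -0.031 to 0.18, -0.11 to 0.22 and 0.31 to 0.49 in that order of comparisons. Among genes above the median level, which leaves 4 members, the median for KDM5A-H483A over wild-type KDM5A was -0.25.

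Over all single-gene probe sets, not collapsed to genes, the members' median for first over second arrays was 0.12, against 0.32 in the fit reported. First over second arrays called 8 genes with the variance trend, and 958 genes and 1 member, Tapbp, in the KDM5A arrays alone, against 0 in the fit reported. Leaving out 1 array gave 0 to 958 genes and 0 to 1 members: 72 genes without either KDM5A-H483A array and 958 without either empty vector array, where the lone array is fitted exactly.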
